A study of Mus musculus with 20 samples.

Results

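Core proteins of the spliceosome and the SR splicing factors were followed from the mouse egg to the 2-cell embryo. The genes were those whose symbol begins with Snrp, or with Snrnp, Sf3a, Sf3b, Srsf, Lsm or Prpf followed by a digit, and this rule took 65 of the 24411 gene symbols measured. The rule used names only and no measured value. It also takes members of the same protein families that act outside the spliceosome: Lsm10 and Lsm11 belong to the U7 particle of histone mRNA processing, Lsm1 to the cytoplasmic ring that promotes mRNA decapping, and Lsm14a and Lsm14b to cytoplasmic mRNA granules.

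The spliceosome is assembled anew on each intron from small nuclear ribonucleoproteins (snRNPs), each made of a short RNA and its proteins. U1 recognises the 5′ splice site and U2 the branch site, the tri-snRNP of U4, U6 and U5 then joins, and rearrangement of these RNAs builds the catalytic centre. The U1, U2, U4 and U5 RNAs carry a ring of Sm proteins and U6 a ring of Lsm proteins, while SR proteins bind exons and help to choose splice sites. The egg stores RNA and proteins for the first divisions, and transcription from the embryo's own genome starts in the zygote and becomes strong in the 2-cell embryo.

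The 20 samples, in 7 groups, were sequenced for poly(A) RNA, and each came from 10 to 15 pooled oocytes or embryos. No treatment was given beyond the culture steps stated below, which all groups shared. In the inbred strain C57BL/6J the groups were MII eggs, which are mature eggs halted in the second meiotic division, G1 zygotes, G2 zygotes and G2 2-cell embryos, with 3 samples each. In the hybrid that the labels call B6CASTF1 they were zygotes in G1 (3 samples), zygotes in G2 (3 samples) and 2-cell embryos (2 samples used here). In all groups the oocytes were held with dbcAMP and matured for 12 h in culture, and embryos came from fertilization in vitro and grew under 5% oxygen, so no group holds embryos from natural mating. The deposited values are the authors' 5 comparisons of neighbouring stages, each a log2 fold change with its standard error (SE) and a p-value adjusted over all genes. A gene is called changed where that adjusted p is under 0.05. No value per sample is in these tables, so the spread is seen through the SE alone and the depth of each sample is unknown. Separate females or days are not named in the labels for the samples of a group, and the p-values therefore reflect only how these samples spread, which may be technical.

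A rise or fall written below as a value with its SE is a log2 fold change. Stage levels are means implied by each strain's mean normalized count and its fold changes, without an error of their own, and the strains were normalized separately. A normalized count is relative to the other RNA of its sample, so a rise, fall or level is not an amount per embryo. Changes in the number of embryos in a batch or in total RNA per embryo are not seen in these values. RNA was copied from its poly(A) tail, so more RNA and more RNA with a tail long enough to be copied cannot be told apart. As a check of the labels, the summed level of 10 egg genes such as Gdf9 went from 259329 in MII eggs to 24139 in 2-cell embryos of C57BL/6J, and that of 8 measured 2-cell genes such as Zscan4d from 402 to 10324. In B6CASTF1 the egg sum went from 269337 in G1 zygotes to 28442 in 2-cell embryos, and the 2-cell sum from 2559 to 31784. Oosp1, Gdf9 and Bmp15 (101032, 83545 and 38204 in MII eggs) carried most of the egg sum. Over the same spans Figla went the other way, from 49.5 to 351 in C57BL/6J and from 5.08 to 25.0 in B6CASTF1. Kit went only from 2209 to 1969 in C57BL/6J. From the G2 zygote to the 2-cell embryo Zp3 went from 890 to 2876 in C57BL/6J and from 2005 to 4252 in B6CASTF1. Of 13 cumulus and granulosa genes, 4 were at 0 in C57BL/6J and 2 in B6CASTF1, and the sum lay between 302 and 1621 in C57BL/6J and between 1450.3 and 2313 in B6CASTF1. Single genes of this list went opposite ways from the G2 zygote to the 2-cell embryo: Cyp19a1 went from 810 to 4.05 in C57BL/6J and from 1338 to 24.5 in B6CASTF1, and Amhr2 from 0.193 to 286 and from 0.594 to 891. In B6CASTF1 Tnfaip6 went from 7.50 to 299 and Ptgs2 from 0.895 to 203. The sum of 9 sperm and testis genes stayed between 82.4 and 241 in C57BL/6J and between 35.7 and 157 in B6CASTF1. Of 4 blood genes, Hbb-bs was at 0 in both strains and Ptprc under 2 in every stage, while Hba-a1 was at 3827 and 2858 in the 2-cell embryos of C57BL/6J and B6CASTF1. The part of these markers in the results below was not tested.

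The largest changes came between the G2 zygote and the 2-cell embryo. In C57BL/6J, 26 of 63 tested members rose and 10 fell, where 25.0% of all 12839 tested genes rose and 25.3% fell. In B6CASTF1, 40 of 64 tested members rose and 10 fell, where 33.1% of 16128 genes rose and 26.8% fell. The median log2 fold change of the members was 1.09 and 1.11 in C57BL/6J and B6CASTF1, and that of all tested genes was 0.17 and 0.55. As shares, 41.3% and 62.5% of the tested members rose and 15.9% and 15.6% fell, a description that carries no test of its own. The median SE of the members was 0.50 in C57BL/6J and 0.28 in B6CASTF1, so the same fold change was called less readily in C57BL/6J. Over all tested genes the median SE was larger, 1.27 and 0.75, so the same fold change was called more readily in a typical member. The part of this in the called shares, here and at the other steps, was not tested.

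Single proteins of the same particle moved apart. The Sm core held 2 genes with large rises beside 6 with small or no changes, the U1 and U2 particles each had genes with log2 rises above 4 next to genes that did not pass the test, and 7 of 10 tested SR genes rose in C57BL/6J and 9 of 10 in B6CASTF1. By group, the median log2 fold change in C57BL/6J and B6CASTF1 was -0.08 and 0.70 for the Sm core, 0.82 and 1.38 for U1, -0.60 and 0.28 for U2, and 1.10 and 1.38 for the tri-snRNP. It was 0.52 and 0.64 for the Lsm ring and 2.76 and 2.79 for the SR genes.

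**Figure D1:**
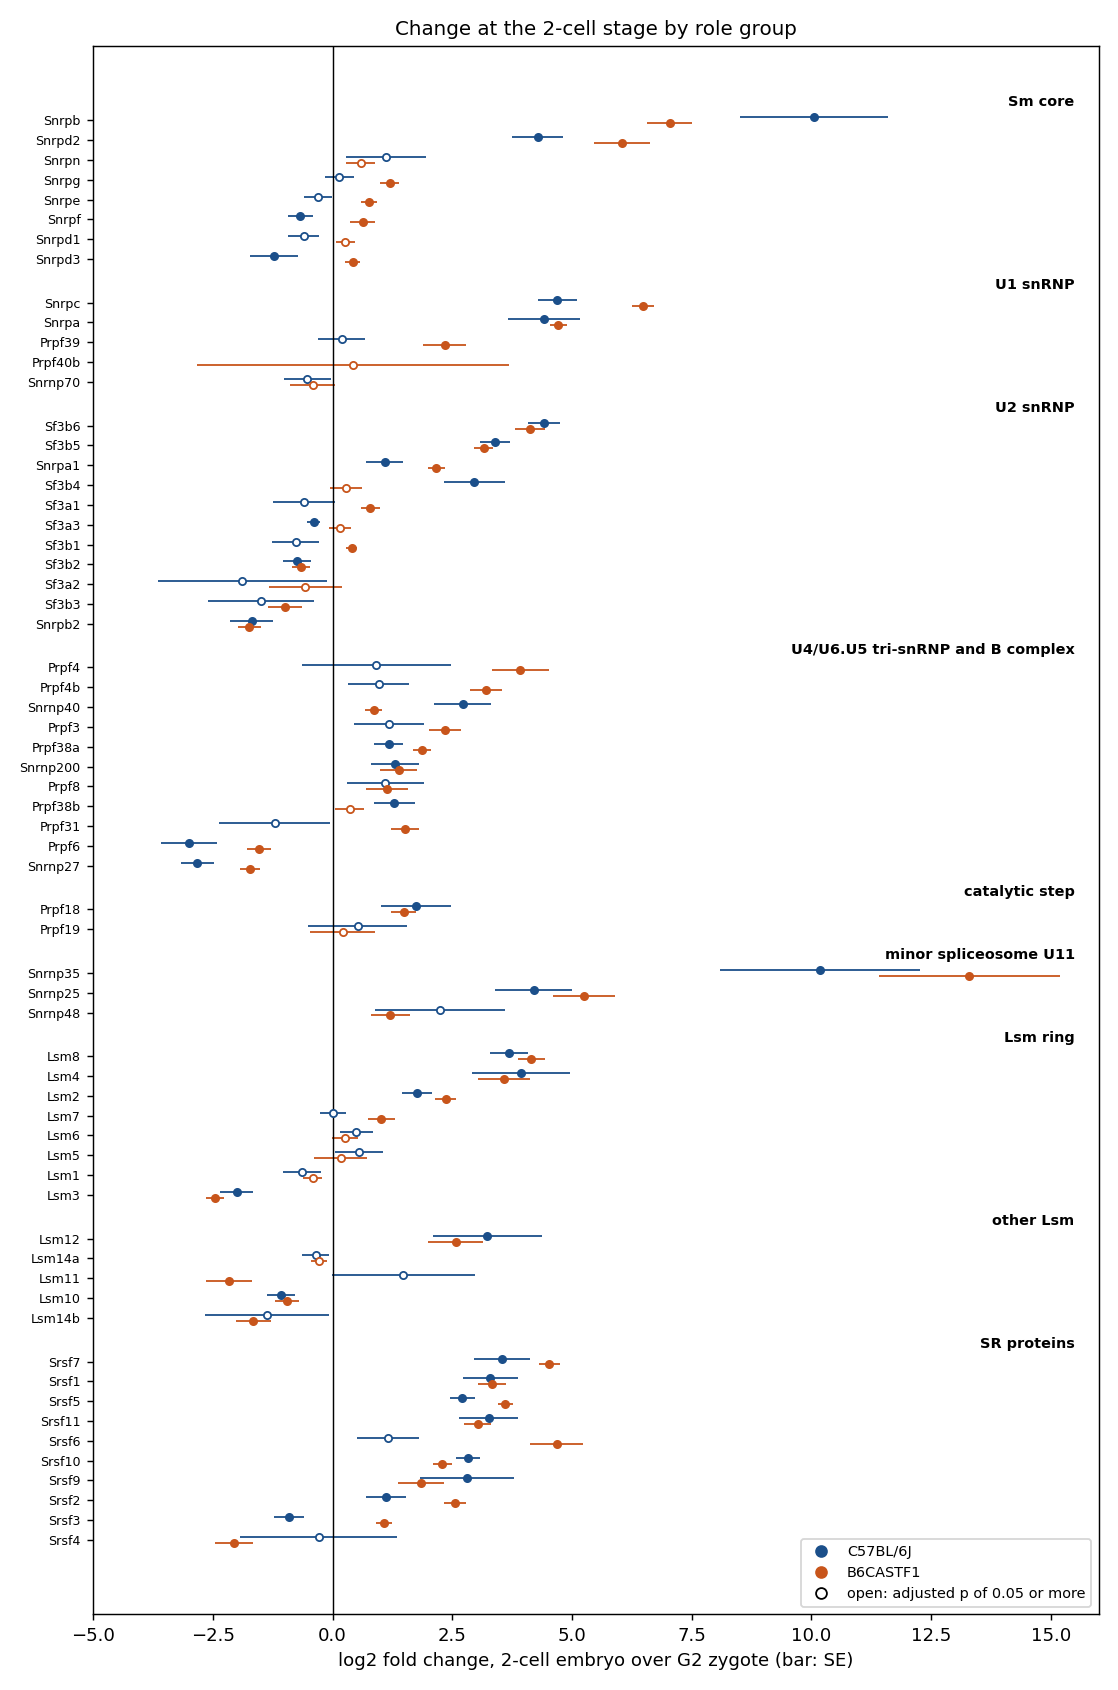
Log2 fold change from G2 zygote to 2-cell embryo of tested genes (x axis) in C57BL/6J (blue) and B6CASTF1 (orange), by role group, with the SE as a bar and open points where the adjusted p was 0.05 or more. Snrpb and Snrnp35 lie farthest to the right in both strains, and Prpf6, Snrnp27, Lsm3 and Snrpb2 lie to the left of 0 in both.

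The Sm ring has 7 positions, filled by Snrpb or its relative Snrpn, Snrpd1, Snrpd2, Snrpd3, Snrpe, Snrpf and Snrpg. Snrpb (chr2:130171414-130179403, GRCm38, minus strand), which encodes SmB, had implied levels of 8.29, 16.4, 2.40 and 2540.1 in MII eggs, G1 zygotes, G2 zygotes and 2-cell embryos of C57BL/6J. In B6CASTF1 its levels were 82.0, 46.7 and 6149 in G1 zygotes, G2 zygotes and 2-cell embryos. Snrpb was thus scarce until the zygote and abundant in the 2-cell embryo of both strains. It rose by 10.05 (SE 1.55, adjusted p = 8.4e-10) in C57BL/6J and by 7.04 (SE 0.48, adjusted p = 4.7e-48) in B6CASTF1 on the log2 scale as given by the authors' deposited tables. The C57BL/6J fold rests on a G2 level near 0, and no bound on it can be given without values per sample.

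Snrpd2 (chr7:19149722-19153542, plus strand), which encodes SmD2, was also highest in the 2-cell embryo, and its level was higher in each stage than in the one before. Its levels were 149, 195, 709 and 13782 from egg to 2-cell embryo in C57BL/6J and 23.7, 101 and 6661 from G1 zygote to 2-cell embryo in B6CASTF1. Already between G1 and G2 zygotes it rose by 1.86 (SE 0.54, adjusted p = 0.012) in C57BL/6J and by 2.09 (SE 0.56, adjusted p = 0.0019) in B6CASTF1 as given by the authors' deposited tables. A larger rise followed at the 2-cell step, of 4.28 (SE 0.54, adjusted p = 4.7e-14) and 6.05 (SE 0.59, adjusted p = 5.3e-24) as given by the authors' deposited tables. Snrpd2 was one of 24 members called higher at the 2-cell step in both strains.

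The other 5 ring genes were abundant in the egg and changed less. Snrpd1 was at 13801, 14606, 18004 and 11819.9 in C57BL/6J and was not called at any of the 5 steps. Its 2-cell log2 fold change was -0.61 (SE 0.33, adjusted p = 0.11) in C57BL/6J and 0.27 (SE 0.19, adjusted p = 0.22) in B6CASTF1 as given by the authors' deposited tables. Snrpe, Snrpf and Snrpg, which form 1 trimer before they join the ring, rose in B6CASTF1 by 0.76 (SE 0.16, adjusted p = 8.6e-06), 0.63 (SE 0.25, adjusted p = 0.025) and 1.19 (SE 0.20, adjusted p = 9.2e-09) as given by the authors' deposited table. In C57BL/6J their 2-cell values were -0.31 (SE 0.30, adjusted p = 0.40) for Snrpe and 0.14 (SE 0.31, adjusted p = 0.73) for Snrpg, neither called, and Snrpf fell by 0.68 (SE 0.26, adjusted p = 0.020), as given by the authors' deposited tables. Snrpd3, the partner of SmB in the ring, fell by 1.22 (SE 0.50, adjusted p = 0.032) at this step in C57BL/6J and rose by 0.42 (SE 0.16, adjusted p = 0.020) in B6CASTF1 as given by the authors' deposited tables. When fold changes were recentred on the median of well-measured genes, the B6CASTF1 rises of Snrpd3 and Snrpf no longer passed the test.

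**Figure D2:**
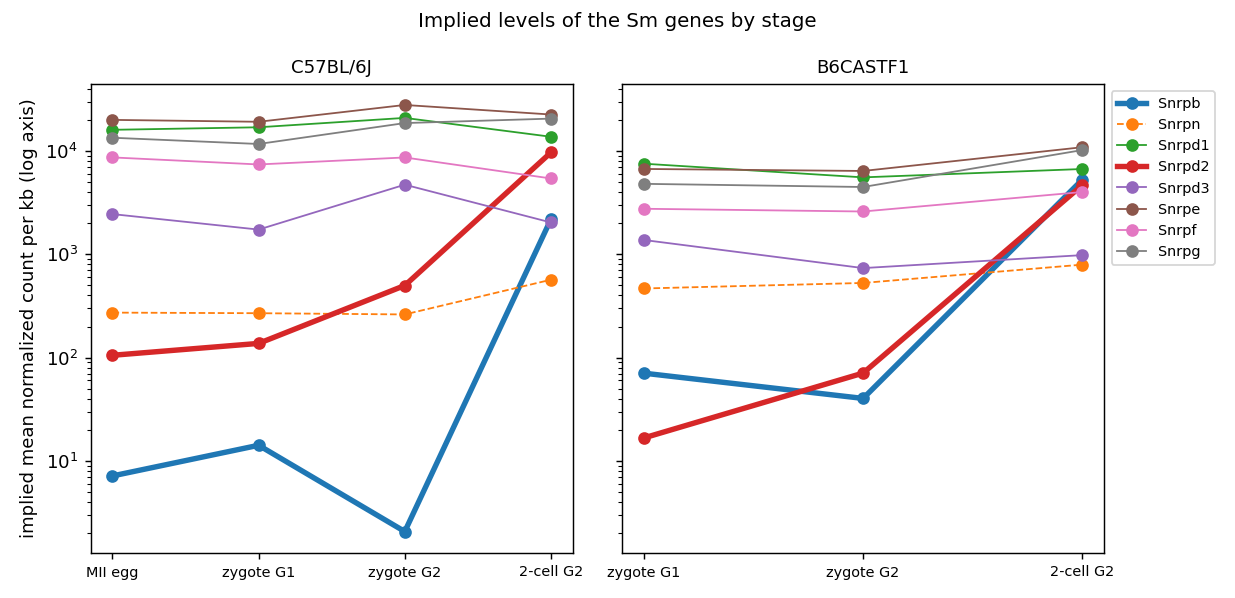
Implied mean normalized count per kb of transcript (log axis) of the 8 Sm genes by stage in C57BL/6J (left) and B6CASTF1 (right), as 1 line per gene without error bars. Snrpb and Snrpd2 (thick lines) climb from the bottom to the level of the other ring genes in the 2-cell embryo, and Snrpn (dashed) stays between 262 and 795.

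Per kb of transcript, the levels of the 7 ring positions (with Snrpb as SmB) came closer to each other. The highest ring gene exceeded the lowest 2813-fold in MII eggs (Snrpe over Snrpb), 1361-fold in G1 zygotes and 13565-fold in G2 zygotes of C57BL/6J, and 11.1-fold in 2-cell embryos (Snrpe over Snrpd3). In B6CASTF1 the ratio was 454 in G1 zygotes, 159.8 in G2 zygotes and 11.1 in 2-cell embryos. The SD of log2 levels per kb over the 7 genes went from 4.90 to 1.44 at the 2-cell step in C57BL/6J and from 3.06 to 1.16 in B6CASTF1. The ratios before the 2-cell stage are set by Snrpb and Snrpd2, and those of C57BL/6J rest on Snrpb levels near 0.

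Snrpn (chr7:59982495-60140219, minus strand) encodes SmN, a close relative of SmB best known from the brain, and lies in the imprinted region linked to Prader-Willi syndrome. Its levels were 566, 559, 543 and 1179 in C57BL/6J and 969.7, 1097 and 1650.5 in B6CASTF1, and it was called at none of the 5 steps. The 2-cell log2 fold change of Snrpn was 1.12 (SE 0.84, adjusted p = 0.26) in C57BL/6J and 0.59 (SE 0.30, adjusted p = 0.077) in B6CASTF1 as given by the authors' deposited tables. Snrpb made up 2.55%, 4.99% and 0.782% of the summed Snrpb and Snrpn levels per kb in eggs, G1 zygotes and G2 zygotes of C57BL/6J and 79.4% in 2-cell embryos. In B6CASTF1 its share was 13.1%, 7.07% and 86.9%. Before the 2-cell stage most of this pair's poly(A) RNA was therefore listed as Snrpn, and after it most was Snrpb.

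The pair can only be told apart by reads that cover a difference. Over the 693 coding bases of Snrpb aligned to Snrpn, 558 were identical (80.5%), the longest identical run was 32 bases, and no word of 50 bases occurred in both coding sequences. Their first 90 coding bases (GENCODE M21, 5′ to 3′) show how the differences are spread, with the 13 that differ in capitals.
Snrpb: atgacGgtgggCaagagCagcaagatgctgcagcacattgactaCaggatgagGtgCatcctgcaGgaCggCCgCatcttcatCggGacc
Snrpn: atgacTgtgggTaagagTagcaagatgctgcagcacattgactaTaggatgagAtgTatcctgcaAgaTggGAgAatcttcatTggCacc
Snrpn shares 21.2% of its transcript's 50-base words with other gene models, most of them with Gm38393 (20.6%), so part of its count can be divided between them. The same limit holds for 9 members in all that share at least 20% of these words with other gene models, among them Srsf3 (31.5%), Srsf5 (27.8%), Snrpa (22.5%), Snrpf (21.3%) and Snrpe (20.8%), while 33 of the 65 share 0%.

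In the U1 particle, the small proteins rose and the 70K protein did not. Snrpc (chr17:27838150-27851968, plus strand), the U1-C protein that steadies the pairing of U1 with the 5′ splice site, was at 138, 118, 546 and 14139.9 in the 4 stages of C57BL/6J and at 142, 266 and 23869 in the 3 stages of B6CASTF1. Each stage after G1 was higher than the one before. Between G1 and G2 zygotes Snrpc rose by 2.22 (SE 0.42, adjusted p = 1.0e-05) and 0.91 (SE 0.23, adjusted p = 6.6e-04), and at the 2-cell step by 4.70 (SE 0.41, adjusted p = 3.6e-28) and 6.49 (SE 0.24, adjusted p = 3.0e-163), in C57BL/6J and B6CASTF1 as given by the authors' deposited tables. Snrpa (chr7:27187005-27196271, minus strand), the U1-A protein that binds a stem-loop of U1 RNA, was at 199, 243, 124 and 2666 and 513, 454 and 11926. Its rise was confined to the 2-cell step among the 5 comparisons, with 4.42 (SE 0.75, adjusted p = 3.1e-08) in C57BL/6J and 4.71 (SE 0.17, adjusted p = 2.4e-159) in B6CASTF1 as given by the authors' deposited tables. Snrnp70, the U1-70K protein, was at 329.8, 427, 341 and 237 and 339, 322 and 241 and was called at no step.

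Prpf39, a U1-associated protein of the early spliceosome, rose by 2.34 (SE 0.45, adjusted p = 8.4e-07) in B6CASTF1 and had a value of 0.19 (SE 0.50, adjusted p = 0.78) in C57BL/6J as given by the authors' deposited tables. Prpf40b had a level under 12 in every stage, and it was tested only at the B6CASTF1 2-cell step, with no call.

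The U2 group showed opposite changes within 1 particle in both strains. Snrpa1, the U2-A′ protein, and Snrpb2, the U2-B″ protein, bind U2 RNA as a pair. Snrpa1 rose by 1.09 (SE 0.39, adjusted p = 0.013) and 2.17 (SE 0.18, adjusted p = 1.3e-33) at the 2-cell step in C57BL/6J and B6CASTF1, whereas Snrpb2 fell by 1.69 (SE 0.45, adjusted p = 6.7e-04) and 1.74 (SE 0.23, adjusted p = 5.2e-13), as given by the authors' deposited tables. In levels, Snrpa1 was at 4400.2, 5105, 3794 and 8050.0 from egg to 2-cell embryo in C57BL/6J and Snrpb2 at 11071, 8705, 13354 and 4135. Per kb, Snrpb2 was above Snrpa1 in MII eggs (5372 against 3526) and G2 zygotes (6479.6 against 3040.0) of C57BL/6J. It was near Snrpa1 in G1 zygotes (4224 against 4090) and below it in 2-cell embryos (2006 against 6450.3). In B6CASTF1 Snrpb2 was below Snrpa1 per kb already in G1 zygotes (1856 against 2733), near it in G2 zygotes (1648 against 1505) and below it in 2-cell embryos (494 against 6773).

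SF3B holds the branch site of the intron. Of its small subunits, 2 rose: Sf3b6, also called p14, which lies near the branch point, by 4.42 (SE 0.34, adjusted p = 2.0e-37) in C57BL/6J and 4.12 (SE 0.31, adjusted p = 1.3e-38) in B6CASTF1, and Sf3b5 by 3.40 (SE 0.32, adjusted p = 1.8e-24) and 3.16 (SE 0.19, adjusted p = 1.8e-58), as given by the authors' deposited tables. Phf5a, a small subunit that the symbol rule does not take, had -0.78 (SE 0.38, adjusted p = 0.079) in C57BL/6J and -0.09 (SE 0.15, adjusted p = 0.63) in B6CASTF1, with no call, as given by the authors' deposited tables. Sf3b6 was at 1026, 665, 545 and 11697 in C57BL/6J and at 283, 271 and 4721 in B6CASTF1. Sf3b5 went the other way before that, with falls between G1 and G2 zygotes of 1.04 (SE 0.32, adjusted p = 0.021) in C57BL/6J and 1.27 (SE 0.17, adjusted p = 1.7e-11) in B6CASTF1 as given by the authors' deposited tables. The large scaffold Sf3b1, the target of many mutations in blood cancers, was at 14594, 11543, 5259 and 3084 in C57BL/6J and 21190.4, 14228 and 18729.6 in B6CASTF1. Its 2-cell value was -0.77 (SE 0.49, adjusted p = 0.18) in C57BL/6J, and in B6CASTF1 it rose by 0.40 (SE 0.11, adjusted p = 9.4e-04) after a fall of 0.57 (SE 0.10, adjusted p = 2.8e-07) between the zygote stages, as given by the authors' deposited tables. The call of this B6CASTF1 rise of Sf3b1 was lost under recentring. Sf3b2 fell at the 2-cell step by 0.75 (SE 0.29, adjusted p = 0.022) and 0.66 (SE 0.19, adjusted p = 8.4e-04) as given by the authors' deposited tables.

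Per kb, the 6 Sf3b members spread farther apart in 2-cell embryos than in G2 zygotes. The highest exceeded the lowest 53.1-fold in MII eggs, 18.9-fold in G1 zygotes, 14.2-fold in G2 zygotes (Sf3b1 over Sf3b4) and 216-fold in 2-cell embryos (Sf3b6 over Sf3b3) of C57BL/6J. In B6CASTF1 the ratio was 31.6 in G1 zygotes, 10.0 in G2 zygotes and 34.5 in 2-cell embryos, so there the 2-cell ratio was near that of G1 zygotes. Sf3b4 rose by 2.96 (SE 0.63, adjusted p = 1.6e-05) in C57BL/6J and had 0.28 (SE 0.33, adjusted p = 0.48) in B6CASTF1 as given by the authors' deposited tables. It shares 49.3% of its 50-base words with the predicted gene Gm7935, the highest share among the members, so its counts are uncertain. Of the SF3A subunits, which join SF3B to U2, Sf3a1 rose by 0.79 (SE 0.20, adjusted p = 1.7e-04) in B6CASTF1, Sf3a3 fell by 0.40 (SE 0.13, adjusted p = 0.0055) in C57BL/6J, and Sf3a2 was called at no step, as given by the authors' deposited tables. Sf3b3 fell by 1.0 (SE 0.36, adjusted p = 0.0096) in B6CASTF1 and had -1.5 (SE 1.12, adjusted p = 0.26) in C57BL/6J as given by the authors' deposited tables.

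Among proteins of the tri-snRNP and of the activating complex, 4 of 11 rose and 2 fell at the 2-cell step in C57BL/6J, and 8 rose and 2 fell in B6CASTF1. The genes that fell were Prpf6 and Snrnp27 in both strains. Prpf6, which bridges U5 to U4/U6, was at 3959.7, 3946, 3082 and 386 in C57BL/6J and at 4333, 3388 and 1173 in B6CASTF1. Its falls were 3.0 (SE 0.58, adjusted p = 1.5e-06) and 1.53 (SE 0.25, adjusted p = 4.5e-09) as given by the authors' deposited tables. Snrnp27, a small SR-like protein of the tri-snRNP, went from 23138 to 3263 in C57BL/6J and from 5187 to 1569 in B6CASTF1. It fell by 2.83 (SE 0.34, adjusted p = 4.5e-15) and 1.72 (SE 0.20, adjusted p = 4.5e-17) as given by the authors' deposited tables.

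Prpf38a (chr4:108563172-108579336, minus strand), which joins at the stage when the spliceosome is activated, was the only member called higher in all 5 comparisons. Its levels were 657, 1601, 3996 and 8985 in C57BL/6J and 2112, 3478 and 12694 in B6CASTF1, so each stage was above the one before. The steps in C57BL/6J were 1.29 (SE 0.30, adjusted p = 0.0015), 1.32 (SE 0.30, adjusted p = 4.9e-04) and 1.17 (SE 0.30, adjusted p = 3.6e-04) as given by the authors' deposited tables. In B6CASTF1 they were 0.72 (SE 0.18, adjusted p = 5.1e-04) and 1.87 (SE 0.19, adjusted p = 7.1e-21) as given by the authors' deposited tables. Snrnp200, the Brr2 helicase that unwinds U4 from U6, rose from 62.1 in MII eggs to 244 in G1 zygotes, by 1.98 (SE 0.51, adjusted p = 0.0060), and again at the 2-cell step by 1.30 (SE 0.50, adjusted p = 0.021), as given by the authors' deposited tables. The 2-cell call of Snrnp200 in C57BL/6J was lost under recentring. In B6CASTF1 it rose at the 2-cell step by 1.38 (SE 0.38, adjusted p = 7.5e-04) as given by the authors' deposited table. Snrnp40, a U5 protein, rose by 2.72 (SE 0.60, adjusted p = 2.7e-05) and 0.86 (SE 0.19, adjusted p = 1.3e-05) as given by the authors' deposited tables.

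Prpf8, the large protein at the heart of the catalytic centre, rose by 1.14 (SE 0.44, adjusted p = 0.018) in B6CASTF1 and had 1.10 (SE 0.81, adjusted p = 0.25) in C57BL/6J as given by the authors' deposited tables. Both values are close to each other, and the SE in C57BL/6J is the larger one. The B6CASTF1 call of Prpf8 was lost under recentring. Prpf3, Prpf4 and Prpf31, which hold U4 and U6 together, rose in B6CASTF1 by 2.35 (SE 0.34, adjusted p = 1.4e-11), 3.92 (SE 0.59, adjusted p = 1.4e-10) and 1.51 (SE 0.29, adjusted p = 7.3e-07) as given by the authors' deposited table. In C57BL/6J their values were 1.17 (SE 0.73, adjusted p = 0.17), 0.91 (SE 1.55, adjusted p = 0.66) and -1.21 (SE 1.16, adjusted p = 0.39) as given by the authors' deposited table, with none called. Prpf4b, a kinase of the tri-snRNP, rose by 3.21 (SE 0.34, adjusted p = 3.8e-20) in B6CASTF1 after a fall of 0.82 (SE 0.31, adjusted p = 0.043) between the zygote stages as given by the authors' deposited tables. Prpf38b was called higher in C57BL/6J, by 1.29 (SE 0.43, adjusted p = 0.0076) and had 0.36 (SE 0.30, adjusted p = 0.30) in B6CASTF1 as given by the authors' deposited tables. Of the factors of the catalytic steps, Prpf18, which acts in the second step, rose by 1.74 (SE 0.72, adjusted p = 0.034) and 1.48 (SE 0.26, adjusted p = 3.1e-08) as given by the authors' deposited tables, and the first of these calls was lost under recentring. Prpf19, the ubiquitin ligase after which its complex is named, was called at no step.

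The minor spliceosome removes a rare class of introns, and its 3 U11 proteins had the highest median log2 fold change of the role groups at the 2-cell step, 4.20 in C57BL/6J and 5.25 in B6CASTF1. Snrnp35 (chr5:124483134-124491124, plus strand), the counterpart of U1-70K, was at 6.52, 10.6, 0.376 and 437 in C57BL/6J and at 15.7, 0.165 and 1668 in B6CASTF1. It was scarce in eggs and zygotes and present in 2-cell embryos. Its 2-cell fold changes were 10.18 (SE 2.09, adjusted p = 5.7e-06) and 13.30 (SE 1.88, adjusted p = 7.9e-12) as given by the authors' deposited tables, and they rest on G2 levels under 1, so their size cannot be relied on. Between the zygote stages it fell in B6CASTF1 by 6.57 (SE 1.78, adjusted p = 0.0022) from a level of only 15.7 as given by the authors' deposited table. Snrnp25 (chr11:32205415-32208984, plus strand) was at 89.4, 61.9, 638 and 11770.1 in C57BL/6J and at 40.6, 121 and 4588 in B6CASTF1. It rose by 3.37 (SE 0.81, adjusted p = 0.0012) and 1.57 (SE 0.60, adjusted p = 0.048) between the zygote stages and by 4.20 (SE 0.81, adjusted p = 1.1e-06) and 5.25 (SE 0.65, adjusted p = 5.8e-15) at the 2-cell step as given by the authors' deposited tables. Snrnp48 rose by 1.2 (SE 0.41, adjusted p = 0.0065) in B6CASTF1 and had 2.25 (SE 1.36, adjusted p = 0.16) in C57BL/6J as given by the authors' deposited tables.

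The Lsm2 to Lsm8 ring binds the end of U6 RNA, and 3 of its genes rose in both strains at the 2-cell step while Lsm3 fell. Lsm8, the subunit that sets the nuclear ring apart from the cytoplasmic one, was at 532, 305, 542 and 6989 in C57BL/6J and at 144, 216 and 3854 in B6CASTF1. It rose by 3.69 (SE 0.40, adjusted p = 1.9e-18) and 4.16 (SE 0.27, adjusted p = 3.3e-51) as given by the authors' deposited tables. Lsm1, which takes its place in the cytoplasmic ring, was at 5269, 4525, 2754 and 1763 and 2982, 2052 and 1539 and had 2-cell values of -0.64 (SE 0.40, adjusted p = 0.17) and -0.41 (SE 0.20, adjusted p = 0.065), neither called, as given by the authors' deposited tables. Per kb, Lsm1 was above Lsm8 in G2 zygotes of C57BL/6J (1034 against 672) and below it in 2-cell embryos (662 against 8660.0). The same order turned in B6CASTF1, from 771 against 268 to 578 against 4776.

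Lsm4 and Lsm2 rose as well, Lsm4 by 3.93 (SE 1.02, adjusted p = 4.6e-04) and 3.59 (SE 0.54, adjusted p = 1.4e-10) and Lsm2 by 1.76 (SE 0.31, adjusted p = 1.5e-07) and 2.37 (SE 0.22, adjusted p = 3.1e-26), as given by the authors' deposited tables. Lsm4 was at 716, 126, 48.9 and 745 in C57BL/6J and at 162, 62.9 and 756 in B6CASTF1. In C57BL/6J its 2-cell level was thus near that of the egg. Lsm3 rose and then fell: between the zygote stages it rose by 2.13 (SE 0.35, adjusted p = 3.0e-07) and 1.21 (SE 0.17, adjusted p = 2.8e-11), and at the 2-cell step it fell by 2.01 (SE 0.35, adjusted p = 1.1e-07) and 2.46 (SE 0.19, adjusted p = 8.3e-37), as given by the authors' deposited tables. Its levels were 4954, 3779, 16493 and 4103 in C57BL/6J and 1299, 3015 and 549 in B6CASTF1, so G2 zygotes stood above their neighbours in both. Lsm6 was the only member called lower upon fertilization, by 1.35 (SE 0.34, adjusted p = 0.0046), and it rose between the zygote stages by 1.33 (SE 0.34, adjusted p = 0.0030) and 1.0 (SE 0.24, adjusted p = 3.8e-04), as given by the authors' deposited tables. In levels it went from 2387 in MII eggs to 933 in G1 and back to 2345 in G2 zygotes. Lsm5 and Lsm7 share 44.0% and 20% of their 50-base words with other gene models, and Lsm5 was called at no step.

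Lsm10 (chr4:126096623-126098584, plus strand) replaces an Sm protein in the U7 particle, and in C57BL/6J it had the largest log2 fold change of any member upon fertilization. It was at 540.3, 5449, 8149 and 3860.0 from egg to 2-cell embryo in C57BL/6J and at 1608, 2704 and 1393 in B6CASTF1. The step from egg to G1 zygote was a rise of 3.33 (SE 0.30, adjusted p = 1.4e-24), and at the 2-cell step Lsm10 fell by 1.08 (SE 0.30, adjusted p = 0.0012) and 0.96 (SE 0.26, adjusted p = 4.3e-04), as given by the authors' deposited tables. Its U7 partner Lsm11 was at 155, 102, 25.0 and 69.7 and 359.9, 286 and 63.3, and it fell by 2.17 (SE 0.48, adjusted p = 1.8e-05) in B6CASTF1 as given by the authors' deposited table. Lsm12, which lies outside both rings, rose by 3.23 (SE 1.14, adjusted p = 0.011) and 2.57 (SE 0.57, adjusted p = 2.2e-05) as given by the authors' deposited tables. Lsm14b fell by 1.66 (SE 0.37, adjusted p = 1.8e-05) in B6CASTF1 and had -1.37 (SE 1.29, adjusted p = 0.39) in C57BL/6J as given by the authors' deposited tables.

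The SR genes moved together at the 2-cell step in most cases. In C57BL/6J 7 of 10 rose and 1 fell, in B6CASTF1 9 of 10 rose and 1 fell, and the summed SR level went from 8506 to 47108 in C57BL/6J and from 11193 to 78262 in B6CASTF1. This sum is not divided by length. Srsf7, Srsf5 and Srsf10 carried most of it in 2-cell embryos, with 16169, 11978 and 10584 in C57BL/6J and 25776, 15949 and 9627 in B6CASTF1. Srsf7 (chr17:80200080-80207307, minus strand), which also acts in mRNA export and 3′ end choice, was at 3348, 2209, 1391 and 16169 in C57BL/6J and at 1776, 1120.1 and 25776 in B6CASTF1. It rose by 3.54 (SE 0.58, adjusted p = 9.6e-09) and 4.52 (SE 0.22, adjusted p = 2.2e-95) as given by the authors' deposited tables. Its level had been lower in each stage up to G2, with a called fall of 0.66 (SE 0.19, adjusted p = 0.0055) in B6CASTF1 as given by the authors' deposited table. Srsf5 rose by 2.71 (SE 0.26, adjusted p = 4.6e-24) and 3.61 (SE 0.16, adjusted p = 3.4e-112), and Srsf1, the founding SR protein, by 3.30 (SE 0.57, adjusted p = 5.3e-08) and 3.34 (SE 0.29, adjusted p = 1.9e-29), as given by the authors' deposited tables. Srsf1 was at 176, 159, 236 and 2319.7 in C57BL/6J and 219.9, 431 and 4351 in B6CASTF1.

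Srsf10, which is a repressor of splicing once it loses phosphate, and Srsf11 rose by 2.83 (SE 0.26, adjusted p = 3.3e-26) and 3.26 (SE 0.61, adjusted p = 6.6e-07) in C57BL/6J and by 2.29 (SE 0.19, adjusted p = 7.9e-31) and 3.03 (SE 0.29, adjusted p = 2.4e-25) in B6CASTF1 as given by the authors' deposited tables. Srsf2, which binds exonic enhancers, rose by 1.12 (SE 0.42, adjusted p = 0.018) and 2.56 (SE 0.22, adjusted p = 2.4e-29), and Srsf9 by 2.81 (SE 0.99, adjusted p = 0.011) and 1.85 (SE 0.48, adjusted p = 2.9e-04), as given by the authors' deposited tables, with the C57BL/6J call of Srsf2 lost under recentring. Srsf6 rose by 4.69 (SE 0.55, adjusted p = 1.8e-16) in B6CASTF1 and had 1.16 (SE 0.65, adjusted p = 0.12) in C57BL/6J as given by the authors' deposited tables. The exceptions were Srsf3 and Srsf4. Srsf3, which regulates its own splicing, was at 3522, 3327, 2349 and 1243 in C57BL/6J and at 5079.8, 4044 and 8520.3 in B6CASTF1. It fell by 0.92 (SE 0.31, adjusted p = 0.0088) in the former and rose by 1.08 (SE 0.16, adjusted p = 7.5e-11) in the latter as given by the authors' deposited tables. Srsf4 fell in B6CASTF1 by 2.07 (SE 0.40, adjusted p = 6.5e-07) and had -0.29 (SE 1.64, adjusted p = 0.91) in C57BL/6J as given by the authors' deposited tables. Srsf12 had a level under 10 in C57BL/6J and was at 0 in B6CASTF1, and it was never tested.

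**Figure D3:**
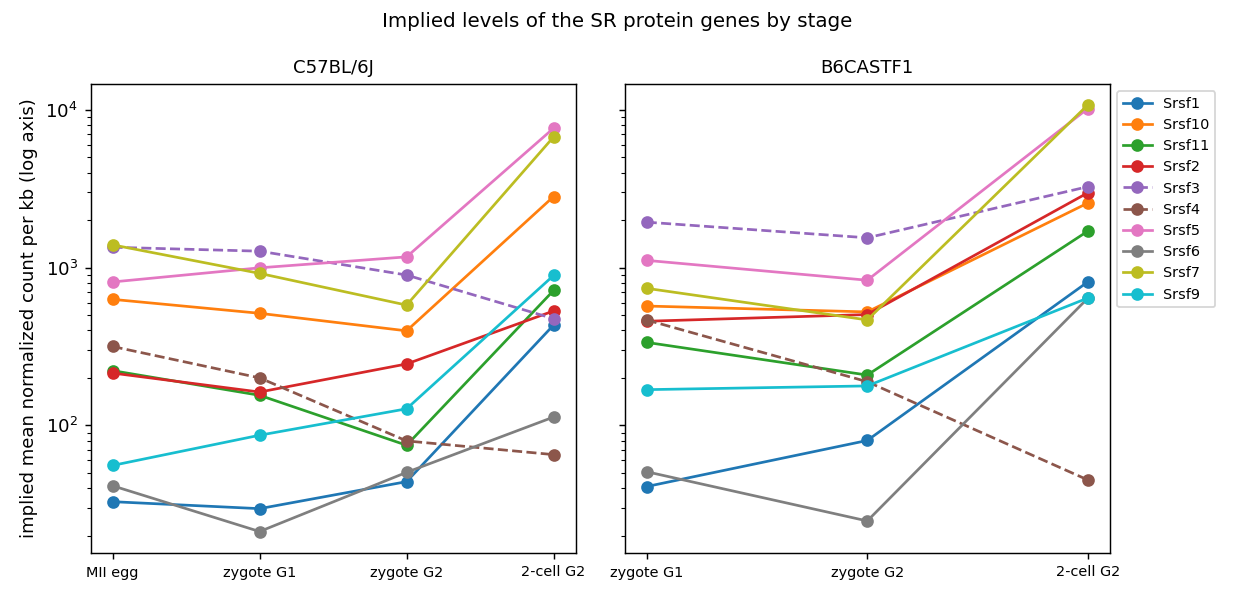
Implied mean normalized count per kb of transcript (log axis) of 10 SR genes by stage in C57BL/6J (left) and B6CASTF1 (right), 1 line per gene without error bars, Srsf3 and Srsf4 dashed. Lines turn up from the G2 zygote to the 2-cell embryo, apart from Srsf4 in both strains and Srsf3 in C57BL/6J.

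The 2-cell change went the same way in both strains for most members. Of the 63 tested in both, 24 were called higher in both strains and 6 lower in both (Lsm3, Lsm10, Prpf6, Sf3b2, Snrnp27 and Snrpb2), where 20.7% and 18.4% of 12573 genes tested in both were. Another 10 had no call in either strain, among them Lsm1, Lsm5, Lsm6, Prpf19, Snrnp70, Snrpd1 and Snrpn. Snrpd3, Snrpf and Srsf3, 3 of the 63, were called in opposite directions, each lower in C57BL/6J and higher in B6CASTF1. Of all genes tested in both, 0.986% were called in opposite directions, whichever strain was the higher one. With fold changes recentred, Srsf3 alone of these 3 members kept both calls. Across the 63 genes the log2 fold changes of both strains had a Pearson correlation of 0.86 and a Spearman correlation of 0.80, and 82.5% had the same sign. Over all 12573 genes these values were 0.69, 0.76 and 81.2%. Genes are not replicates, so the correlations are descriptions.

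The difference between strains was also tested gene by gene, as the B6CASTF1 fold change minus that of C57BL/6J over their combined SE. At the 2-cell step 14 of 63 members differed, beside 16.6% of 12573 genes, and 12 of the 14 were higher in B6CASTF1, as were 69.7% of all 2090 genes called. The median difference was 0.29 for the members and 0.29 for all genes. Strain, cross and the separate fits cannot be told apart in this comparison. Srsf3 had the smallest adjusted p, with a difference of 1.99 (SE 0.35, adjusted p = 8.7e-07), and among the 14 called the difference of Srsf6 was the largest at 3.52 (SE 0.85, adjusted p = 6.1e-04). Other called differences were 1.79 (SE 0.48, adjusted p = 0.0023) for Snrpc, 2.24 (SE 0.72, adjusted p = 0.015) for Prpf4b and 2.15 (SE 0.67, adjusted p = 0.013) for Prpf39. In the Sm core, the difference was 1.63 (SE 0.53, adjusted p = 0.016) for Snrpd3, 1.30 (SE 0.36, adjusted p = 0.0040) for Snrpf, 1.07 (SE 0.34, adjusted p = 0.015) for Snrpe and 1.05 (SE 0.37, adjusted p = 0.030) for Snrpg. At these 4 of the 7 ring positions the 2-cell change, not the level, was higher in B6CASTF1. The zygotic and 2-cell differences share the G2 zygote, so a strain difference in G2 alone enters both with opposite signs. Between G1 and G2 zygotes the differences of these 4 genes were -2.35, -0.31, -0.61 and -0.77, and only that of Snrpd3 was called. Sf3b4 at -2.68 (SE 0.72, adjusted p = 0.0025) and Snrnp40 at -1.86 (SE 0.63, adjusted p = 0.023) were the 2 with a lower change in B6CASTF1. For Snrpb and Snrnp35 the strains were not called apart. The difference was -3.01 (SE 1.62, adjusted p = 0.21) for Snrpb and 3.12 (SE 2.81, adjusted p = 0.52) for Snrnp35.

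**Figure D4:**
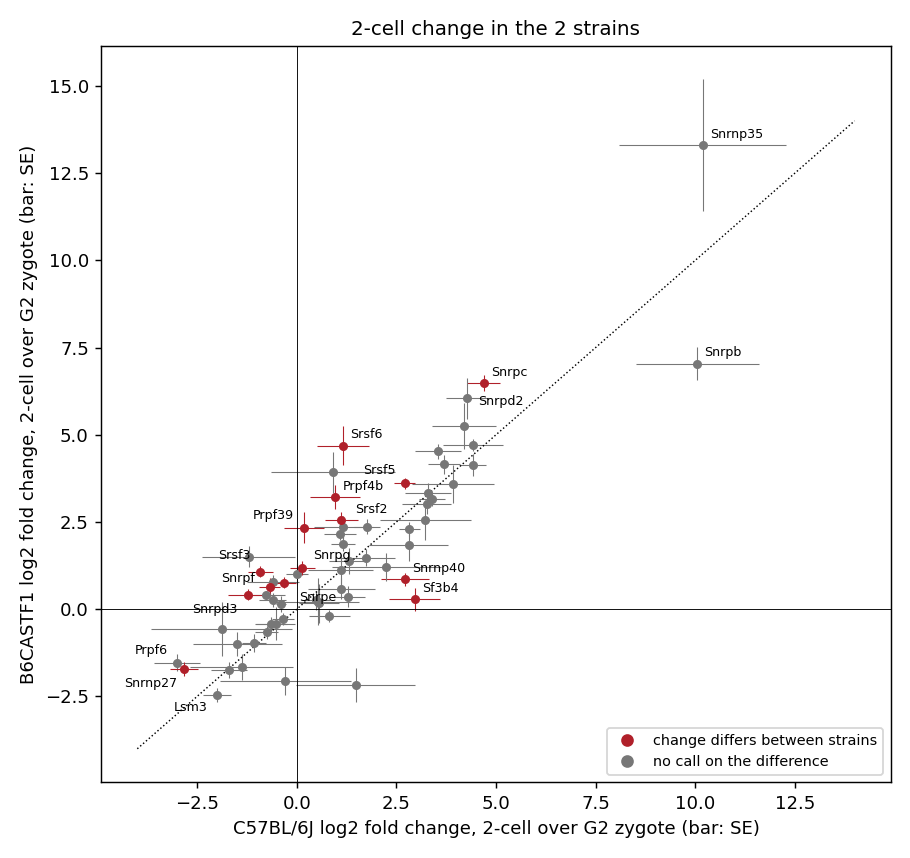
Log2 fold change from G2 zygote to 2-cell embryo of the 63 genes tested in both strains, in C57BL/6J (x axis) and B6CASTF1 (y axis), with SE bars and a dotted line of equal change, and the 14 genes whose change differed between strains in red. Most red points lie above the line, and Sf3b4 and Snrnp40 lie below it.

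Members with a lower level in the G2 zygote tended to rise more. To keep level and fold apart, the level was taken from 1 strain and the fold change from the other, which share no samples. The Spearman correlation of the B6CASTF1 2-cell fold change with the C57BL/6J G2 level was -0.38 over 63 members and -0.33 over all genes tested in both. With the strains exchanged it was -0.58 over the members and -0.30 over all genes. These are correlations across genes, and the strains share each gene's length and sequence.

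Between G1 and G2, within the zygote, the comparison shows which members moved over the span of DNA replication and the first transcription. In C57BL/6J 8 of 63 rose and 1 fell, where 5.01% of 13264 genes rose and 2.87% fell. In B6CASTF1 11 of 63 rose and 14 fell, where 9.63% of 14668 genes rose and 9.63% fell. The median log2 fold change of the members was 0.02 in C57BL/6J and -0.17 in B6CASTF1, beside 0.12 and 0.00 for all genes. Those called higher in both strains were Lsm3, Lsm6, Prpf38a, Snrnp25, Snrpc and Snrpd2, and Sf3b5 was lower in both. Snrnp25, Snrpc, Snrpd2 and Prpf38a went on to rise at the 2-cell step in both strains.

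The other zygotic calls were mostly in B6CASTF1. Lsm7 rose by 1.08 (SE 0.27, adjusted p = 0.0021) in C57BL/6J as given by the authors' deposited table. In B6CASTF1 Srsf1, Prpf3, Sf3b3, Prpf18 and Lsm10 rose, by 0.97 (SE 0.27, adjusted p = 0.0027), 1.13 (SE 0.31, adjusted p = 0.0023), 1.10 (SE 0.32, adjusted p = 0.0049), 0.78 (SE 0.23, adjusted p = 0.0070) and 0.75 (SE 0.23, adjusted p = 0.0080) as given by the authors' deposited table. The 14 genes that fell in B6CASTF1 included Lsm1, Lsm4, Lsm14a, Prpf4b, Sf3b1, Snrpa1, Snrpd3, Srsf4, Srsf5, Srsf7 and Srsf11. Snrpa1 fell by 0.86 (SE 0.16, adjusted p = 1.4e-06), Srsf4 by 1.30 (SE 0.35, adjusted p = 0.0018) and Lsm14a, of the mRNA granules, by 0.50 (SE 0.16, adjusted p = 0.011) as given by the authors' deposited table. Among SR genes, 4 of 10 fell at this step in B6CASTF1 and 1 rose, and 0 of 10 were called in C57BL/6J, where 0 also had an unadjusted p under 0.05. The SE of the members had a median of 0.50 in C57BL/6J and 0.25 in B6CASTF1 at this step, so the same fold change was called less readily in C57BL/6J. Over all tested genes the median SE was 1.23 and 0.57, so the same fold change was called more readily in a typical member.

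Snrpd3 was the only member whose zygotic change differed between strains, beside 1.92% of 12517 genes. It rose by 1.45 (SE 0.50, adjusted p = 0.048) in C57BL/6J and fell by 0.90 (SE 0.15, adjusted p = 2.2e-08) in B6CASTF1 as given by the authors' deposited tables, a difference of -2.35 (SE 0.52, adjusted p = 0.0012). Its levels were 7452, 5275, 14364 and 6181 in C57BL/6J and 4183, 2234 and 2984 in B6CASTF1, so the G2 zygote was the highest stage in the former and the lowest in the latter. The C57BL/6J call was lost under recentring and without the filter on low counts. At an unadjusted p under 0.05, 9 of 63 members differed, beside 9.83% of all genes. Across members the zygotic fold changes of both strains had a Pearson correlation of 0.71 and a Spearman correlation of 0.62 (n = 63 genes), beside 0.20 and 0.35 over all 12517 genes. Members had a smaller median SE than all tested genes, and the part of this in the correlations was not tested.

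**Figure D5:**
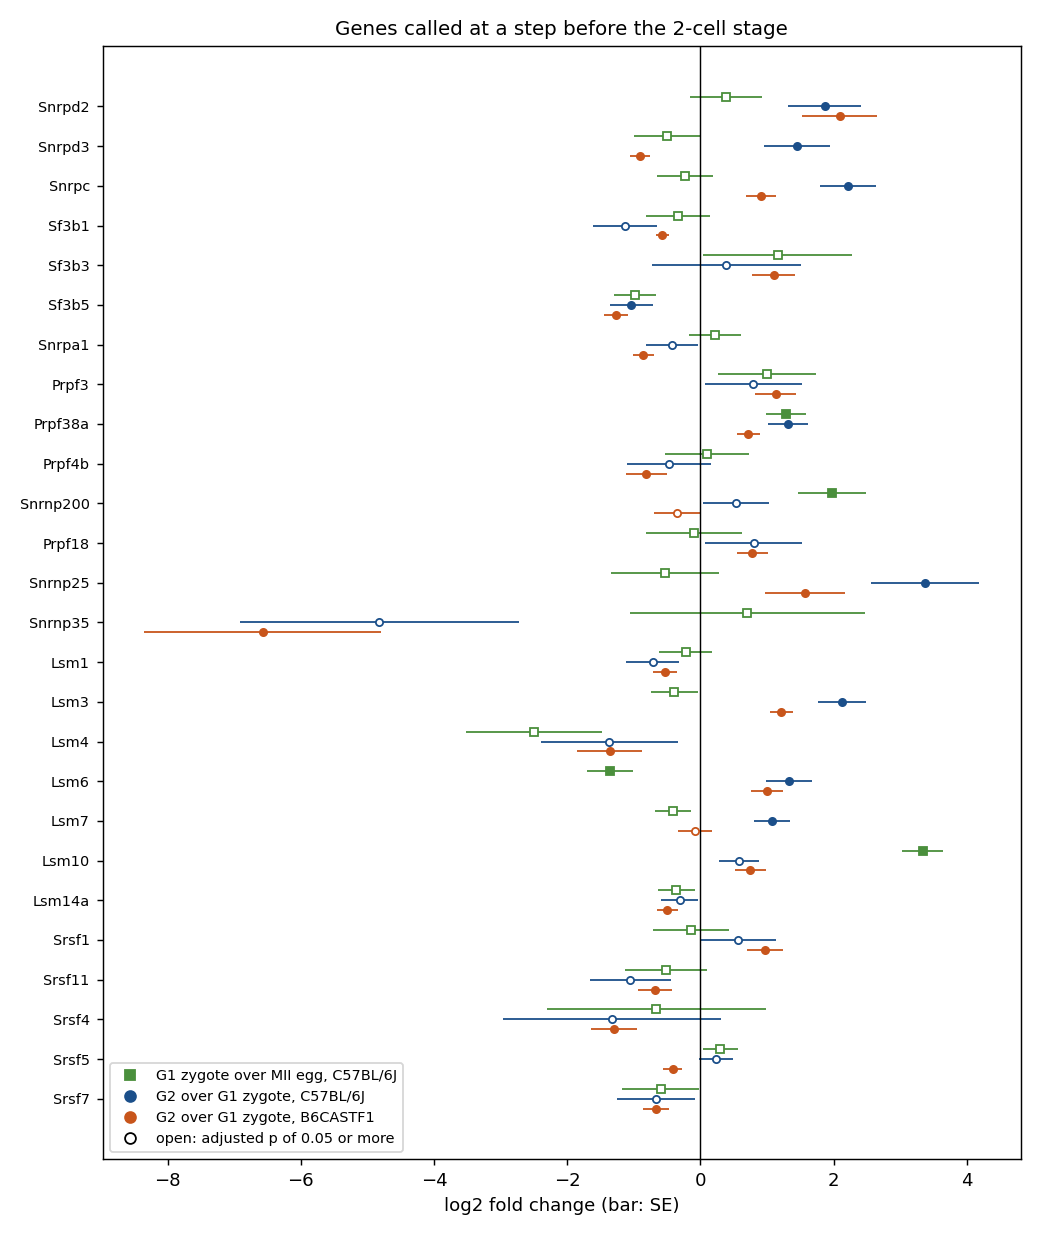
Log2 fold change with SE of 26 genes called in at least 1 comparison before the 2-cell stage: G1 zygote over MII egg (green squares), and G2 over G1 zygote in C57BL/6J (blue) and in B6CASTF1 (orange), open where the adjusted p was 0.05 or more. Lsm10 stands at 3.33 upon fertilization, and Snrnp25, Snrpc, Lsm3 and Snrpd2 lie to the right of 0 between the zygote stages of both strains.

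Upon fertilization, between MII eggs and G1 zygotes of C57BL/6J, 3 of 63 members rose and 1 fell, where 1.62% of 13551 genes rose and 1.12% fell. These were Lsm10, Snrnp200 and Prpf38a, which rose, and Lsm6, which fell, with the values given above. The median log2 fold change was -0.19 for the members and -0.08 for all genes. The median SE was 0.51 for the members and 1.26 for all tested genes. No Sm, U1, U2, U11 or SR gene was called by the authors' DESeq2 test, and of their 37 tested genes 3, all in the U2 group, had an unadjusted p under 0.05. Lsm4 had -2.50 (SE 1.02, adjusted p = 0.25) and Sf3b5 -0.98 (SE 0.32, adjusted p = 0.070) as given by the authors' deposited table. The G1 zygote is shared by this comparison and the next one in C57BL/6J, so a value that is low in G1 alone, as for Lsm6, enters both.

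Splicing genes outside the naming rule gave the setting for these changes. Of 75 such genes in 6 lists, 72 were tested at the C57BL/6J 2-cell step, where 34 rose and 8 fell, and 74 in B6CASTF1, where 51 rose and 10 fell. As shares, 47.2% and 68.9% rose in C57BL/6J and B6CASTF1, beside 25.0% and 33.1% of all tested genes, and 11.1% and 13.5% fell, beside 25.3% and 26.8%. Their median log2 fold changes were 0.98 and 1.71. Their median SE was 0.54 and 0.26, beside 1.27 and 0.75 for all tested genes. Genes that build snRNPs moved the most by their list's median, 2.26 in C57BL/6J with 7 of 13 higher and 0 lower, and 3.43 in B6CASTF1 with 11 of 15 higher and 1 lower. This list holds the SMN complex, which loads Sm rings, and the PRMT5 methylosome, which methylates Sm tails. Wdr77 and Prmt5, the methylosome core, rose by 10.37 (SE 0.35, adjusted p = 6.6e-189) and 5.25 (SE 0.33, adjusted p = 4.2e-55) in B6CASTF1 as given by the authors' deposited table. Strap of the SMN complex and Clns1a, the chaperone that hands Sm proteins to it, rose by 2.26 (SE 0.34, adjusted p = 2.1e-10) and 1.81 (SE 0.29, adjusted p = 6.2e-09) in C57BL/6J as given by the authors' deposited table.

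The list of 3′ splice site factors and early helicases had 9 of 14 higher and 0 lower in C57BL/6J and 12 of 14 higher and 0 lower in B6CASTF1. Tra2b, an SR-like activator, and the helicase Ddx46 rose by 2.38 (SE 0.26, adjusted p = 4.0e-19) and 2.48 (SE 0.41, adjusted p = 1.7e-08) in C57BL/6J as given by the authors' deposited table. U2af1, which reads the AG at the 3′ splice site, and Luc7l of U1 rose by 3.27 (SE 0.22, adjusted p = 1.1e-50) and 3.53 (SE 0.23, adjusted p = 1.4e-53) in B6CASTF1 as given by the authors' deposited table. In the list of Prp19 complex and catalysis genes 8 of 21 rose and 3 fell in C57BL/6J, and 17 rose and 1 fell in B6CASTF1. Cdc5l, a core subunit, rose by 5.38 (SE 0.77, adjusted p = 2.8e-11) and 8.28 (SE 0.40, adjusted p = 3.3e-93) as given by the authors' deposited tables, while the helicase Dhx38 fell by 8.90 (SE 1.44, adjusted p = 5.6e-09) in C57BL/6J to a level of only 0.246 as given by the authors' deposited table. This fall was not shared by B6CASTF1, where the Dhx38 level went from 173 in G2 zygotes to 253 in 2-cell embryos. Cwc22 rose by 5.44 (SE 0.16, adjusted p = 2.6e-267) in B6CASTF1 as given by the authors' deposited table.

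Tri-snRNP partners had 5 of 11 higher and 1 lower in C57BL/6J and 5 higher and 2 lower in B6CASTF1. Usp39 rose by 2.79 (SE 0.45, adjusted p = 6.4e-09) and 2.66 (SE 0.22, adjusted p = 4.7e-32), Ppih by 1.09 (SE 0.20, adjusted p = 4.8e-07) in C57BL/6J, and Sart3, which rebuilds U4/U6, fell by 2.55 (SE 0.25, adjusted p = 7.9e-23) in B6CASTF1, as given by the authors' deposited tables. In C57BL/6J the Sart3 level went only from 714 in G2 zygotes to 605 in 2-cell embryos. Kinases that phosphorylate SR proteins split evenly, 2 higher and 2 lower of 7 in C57BL/6J and 3 higher and 3 lower in B6CASTF1. Clk1 and Srpk1 fell by 1.5 (SE 0.34, adjusted p = 4.0e-05) and 1.22 (SE 0.38, adjusted p = 0.0042) in C57BL/6J, Srpk2 fell by 2.38 (SE 0.14, adjusted p = 2.9e-61) and Clk4 rose by 4.36 (SE 0.42, adjusted p = 2.0e-24) in B6CASTF1, as given by the authors' deposited tables. The Srpk2 level of C57BL/6J went only from 1834 in G2 zygotes to 1586 in 2-cell embryos. In the minor spliceosome, 3 of 6 partners rose and 2 fell in C57BL/6J, and 3 rose and 3 fell in B6CASTF1. Zmat5 rose by 3.81 (SE 0.56, adjusted p = 7.3e-11) and 3.65 (SE 0.36, adjusted p = 7.8e-24) and Rnpc3 by 4.11 (SE 0.38, adjusted p = 1.8e-26) in B6CASTF1, while Pdcd7, also of the U11 particle, fell by 6.94 (SE 0.92, adjusted p = 9.3e-13) in C57BL/6J, as given by the authors' deposited tables. The Pdcd7 level went from 1487 in G2 zygotes to only 12.1 in 2-cell embryos there, and from 2490 to 823 in B6CASTF1.

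Before the 2-cell stage most genes of the same lists had no call, though the called shares lay above those of all genes. Upon fertilization 6 of 72 outside genes rose and 2 fell (8.33% and 2.78%), where 1.62% and 1.12% of all tested genes did. Between the zygote stages 5 of 72 rose and 3 fell in C57BL/6J (6.94% and 4.17%), where 5.01% and 2.87% of all tested genes did. In B6CASTF1 12 of 74 rose and 16 fell (16.2% and 21.6%), where 9.63% and 9.63% of all tested genes did. At each of these steps the median SE of the outside genes was below that of all tested genes.

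The promoters of the members were compared because so many of these genes rose at 1 step. A promoter of 300 bases, from 250 before the start to 50 after it, was held for 55 of the 65 members in RefSeq on GRCm38.p6. Of 6 motifs searched on both strands, the ETS core CCGGAAG had the widest gap between members and genes: 21 of 55 members (38.2%) had it, beside 9.93% of 27025 genes and 18.7% of the 9571 genes with a promoter that were tested in both strains. ETS factors are a family of activators whose sites are common near the start of housekeeping genes. YY1 (AAGATGGCG) was found in 3 members (5.45%) beside 1.64% of genes, and NRF1 (GCGCA followed directly by TGCGC) in 2 (3.64%) beside 1.07%. Among the genes tested in both strains the shares were 3.28% for YY1 and 2.25% for NRF1. For members, all genes and genes tested in both strains, the shares were 40.0%, 41.1% and 43.6% for NF-Y (CCAAT) and 7.27%, 8.09% and 11.03% for the E-box (CACGTG). For NR5A2, the factor in the title of the study (TCAAGGNCA), they were 1.82% (Lsm7 only), 1.86% and 1.33%. No motif here contains another.

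Stretches of 80 bases upstream of the gene show the match in capitals (CCGGAAG, or CTTCCGG where it lies on the other strand) in 4 members called in both strains at the 2-cell step, of which Snrnp200, Srsf5 and Srsf7 rose and Sf3b2 fell, and in 2 rising members that lack it (GRCm38.p6, 5′ to 3′ on the gene's strand).
Snrnp200, chr2:127208306-127208385, plus strand: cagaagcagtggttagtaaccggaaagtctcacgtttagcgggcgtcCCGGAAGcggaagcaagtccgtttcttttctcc
Srsf5, chr12:80945419-80945498, plus strand: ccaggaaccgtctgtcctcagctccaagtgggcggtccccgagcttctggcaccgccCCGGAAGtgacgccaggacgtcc
Srsf7, chr17:80207476-80207555, minus strand: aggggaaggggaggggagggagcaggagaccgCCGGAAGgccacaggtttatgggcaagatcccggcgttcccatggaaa
Sf3b2, chr19:5295458-5295537, minus strand: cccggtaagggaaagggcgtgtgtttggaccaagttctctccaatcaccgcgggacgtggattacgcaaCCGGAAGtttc
Snrnp25, chr11:32205335-32205414, plus strand: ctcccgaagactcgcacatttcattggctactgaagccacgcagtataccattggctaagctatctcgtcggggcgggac
Prpf38a, chr4:108579337-108579416, minus strand: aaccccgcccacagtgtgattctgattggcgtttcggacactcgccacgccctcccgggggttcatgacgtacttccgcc
The rise was not larger with the match. The median 2-cell log2 fold change was 0.14 with it and 1.11 without it in C57BL/6J, and 0.76 with it (n = 21 genes) and 1.36 without it (n = 32) in B6CASTF1. Of the 18 members with a promoter that rose in both strains, 6 had the match. A match is a run of letters and not a bound site, and 10 members, Snrpb and Snrpd1 among them, were not searched.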

How the data were processed

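Smart-seq2 libraries, primed with oligo-dT, were made from 20 batches of mouse oocytes and embryos, per the labels' protocols. The authors used bcl2fastq, kallisto, TopHat, Picard, DESeq2 and the build mm10, per the submitters' processing notes, with no role given. The authors compared neighbouring stages with DESeq2 1.18.1 (Wald test). Per the file headers, each deposited table holds a mean normalized count (a signal), the log2 fold change and its SE, a Wald score, and the p-value before and after adjustment. Within a strain the mean count was identical in all tables, so the strains were treated as separate fits.

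From these values, stage levels were computed from the strain mean and fold changes, weighted by samples per stage, and divided by the length of the longest coding GENCODE M21 transcript (GRCm38, the same assembly as mm10) where given per kb. Strain differences used a two-sided normal p on the difference over the combined SE, adjusted by Benjamini-Hochberg over all genes tested in both strains. This step was run on simulated data with normal noise of the given SE, which cannot show whether the authors' SE is right. Recentring subtracted the median fold change of genes with a mean of at least 100. Members and lists were chosen with earlier results of these data known. Named members were, per comparison, the 6 called with the smallest adjusted p in each direction (mean of at least 10), the extremes of each role group at the 2-cell step (mean of at least 100), those that differed between strains, and Lsm6, Lsm10, Snrnp35, Snrpn and Snrpb; of outside genes, the 2 of each list with the smallest adjusted p. Other members were named after their values were seen, to complete a group. A single member is counted in the totals but its own values are not reported here. Python 3.11.15, pandas 2.3.3, scipy 1.17.1 and Biopython 1.88 were used.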

Additional observations from a re-analysis of the deposited data

Results flagged for a closer look

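The fold change of these genes differed between the hybrid and the inbred strain by a test of the difference itself, given as B6CASTF1 minus C57BL/6J on the log2 scale. Between G1 and G2 zygotes only Snrpd3 differed, by -2.35. This difference and those of the 2-cell step share the G2 zygote, so they are not independent. From the G2 zygote to the 2-cell embryo the differences were 1.99 for Srsf3, 3.52 for Srsf6, 1.79 for Snrpc, 2.24 for Prpf4b, 2.15 for Prpf39, 1.63 for Snrpd3 and 1.45 for Srsf2. Smaller ones were 1.30 for Snrpf, 1.10 for Snrnp27, 1.07 for Snrpe, 1.05 for Snrpg and 0.90 for Srsf5. Lower changes in B6CASTF1 were -2.68 for Sf3b4 and -1.86 for Snrnp40. Sf3b4, Srsf3, Srsf5, Snrpf and Snrpe share at least 20% of their 50-base words with other gene models, and the effect of this on the differences was not tested. Outliers among samples could not be sought, since the tables hold no values per sample.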

How the results depend on the processing

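The threshold, the adjustment, filters on low counts, a minimum fold change, recentring, a raised SE and, added after the data were seen, the removal of 9 members that share at least 20% of their sequence words were tried. At the 2-cell step of B6CASTF1 the count of called members stayed between 34 and 50, within 1.5 times of the 50 reported. With Bonferroni the count was 1 of 4 upon fertilization, 2 of 9 (C57BL/6J) and 5 of 25 (B6CASTF1) between the zygote stages, 19 of 36 at the C57BL/6J 2-cell step, and 0 of 1 and 1 of 14 for the strain differences at the zygotic and 2-cell steps. With the SE raised 1.5 times these counts were 1, 2, 5, 23, 0 and 1. A minimum absolute log2 fold change of 1 left 10 of 25 zygotic calls in B6CASTF1, and a threshold of 0.01 left 5 of the 14 strain differences. At that threshold the share of higher calls among the zygotic calls of B6CASTF1 was 58.8%, beside 44.0% at 0.05. Recentring shifted the 2-cell fold changes by 0.20 in C57BL/6J and 0.22 in B6CASTF1 and left 23 higher and 11 lower, and 36 higher and 13 lower. Of 104 fold changes of members named by the rule above, recentring took the call of 5 and the raised SE of 28. Outside these 104, recentring also took the 2-cell calls of Sf3b1 and Prpf8 in B6CASTF1 and of Snrnp200 in C57BL/6J. The authors' shrunken values kept the direction of 104. Shrinking pulls a fold change toward 0 and no new p was used with it, so that setting could take no call. Implied 2-cell levels of B6CASTF1 were 0.754 to 1.10 times those reported when that stage was weighted as 3 samples. Leaving out samples and another normalization were not possible without values per sample. No paired analysis was possible because the tables carry no column per sample. Depth per sample is unknown, so the precision is that of the authors' SE.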
